A study of Mus musculus with 2 samples.

Results

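Chemokines, interleukins and their receptors were examined in 2 cell populations sorted as epithelial cells of the mouse hair follicle. The members are all genes whose symbol begins with Ccl, Cxcl, Ccr, Cxcr or Il followed by a digit and that had a probe set annotated to that symbol alone. There were 119 such genes, on 185 probe sets, among 18193 genes in all. The symbols are those of the array's annotation, so interleukin-36 family genes appear under their older names (Il1f5, Il1f6, Il1f8, Il1f9).

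Cells of the first sample, early bulge, were bright both for a green reporter under Sox9 (Sox9-EGFP), a transcription factor of follicle stem cells, and for a red reporter under the keratin 14 promoter (K14-RFP), which is active in basal epithelial cells. The second sample, from the outer root sheath (ORS) outside the bulge, was RFP-bright and without green signal. The bulge is the niche of the follicle's stem cells and the ORS is the outer epithelial layer of the follicle. Both samples came from back skin of CD-1 pups at postnatal day 4 that carried both transgenes, and both sorts left out dead cells and large differentiated ones. Each population was measured on 1 array, and the sources used here do not say how many pups went into it. No ratio could therefore be set against a spread between replicates, and no test between the populations was made.

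Values are linear MAS5 signals, a unit without absolute meaning in which both arrays had the same 2% trimmed mean of 500.0. Signals under the pooled 40th percentile (57.8, called the floor) were not ordered, and a gene below it on both arrays counts as not measured. Ratios are early bulge over ORS, and where 1 array lay below the floor the ratio is a lower bound, written as at least N-fold. In total 13252 genes were measured. The green gate gene Sox9 checked the labels, with a signal of 4061 in early bulge cells against 676.1 in ORS cells, and its 3 measured probe sets had log2 ratios from 0.30 to 2.59. All 12 markers of hair follicle epithelium were measured, 7 of them (58.3%) 2-fold or more higher in early bulge cells and none in ORS cells, with a median log2 ratio of 1.05. These epithelial markers thus lay on the side of the members higher in early bulge cells, and their part in the members' ratios was not tested. The hemidesmosome collagen gene Col17a1 had signals of 13365 in early bulge cells against 2569 in ORS cells, and the keratin gene Krt14 had 14706 in early bulge cells against 6609 in ORS cells. The keratin gene Krt5 had signals of 21639 in early bulge cells against 14212 in ORS cells.

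Chemokines are small secreted proteins that guide migrating cells along a gradient, and their receptors are G protein-coupled receptors. Interleukins are secreted messengers that bind receptor chains in pairs and signal mainly through JAK kinases and STAT factors or, for the interleukin-1 and interleukin-17 families, through adaptor proteins to the transcription factor NF-kB. In skin, epithelial cells both make and sense these molecules, and the hair follicle is known as a site from which chemokines call leukocytes into the epithelium.

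Early bulge cells were higher for the chemokine receptor Cxcr4, the interleukin receptor chains Il17rc, Il20rb, Il17re and Il17rb and the chemokines Ccl20, Ccl4 and Ccl27a. ORS cells were higher for the chemokines Cxcl12 and Cxcl2, for Il6 and for its receptor Il6ra. The ORS sample was also higher for markers of connective tissue cells, given below, and their part in these ratios was not tested. Of the 119 genes, 64 (53.8%) were measured and 55 were not, and 72.8% of all genes were measured. Among the 64, 12 were 2-fold or more higher in early bulge cells (18.8%), where 7.3% of all measured genes were. Another 4 were 2-fold or more higher in ORS cells (6.25%), where 4.78% of all measured genes were. The other 48 were less than 2-fold apart, or had a lower bound under 2-fold where 1 array lay below the floor. The median log2 ratio of the 64 was 0.36, and that of all measured genes was 0.04. These shares describe the genes that passed the floor and are no test: 23 of the 64 had 1 array below the floor, 5 of them among the 12 higher in early bulge cells. At 4-fold, 3 of the 64 members were higher in early bulge cells, where 1.87% of all measured genes were, and 1 in ORS cells, where 1.32% of all measured genes were.

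**Figure D1:**
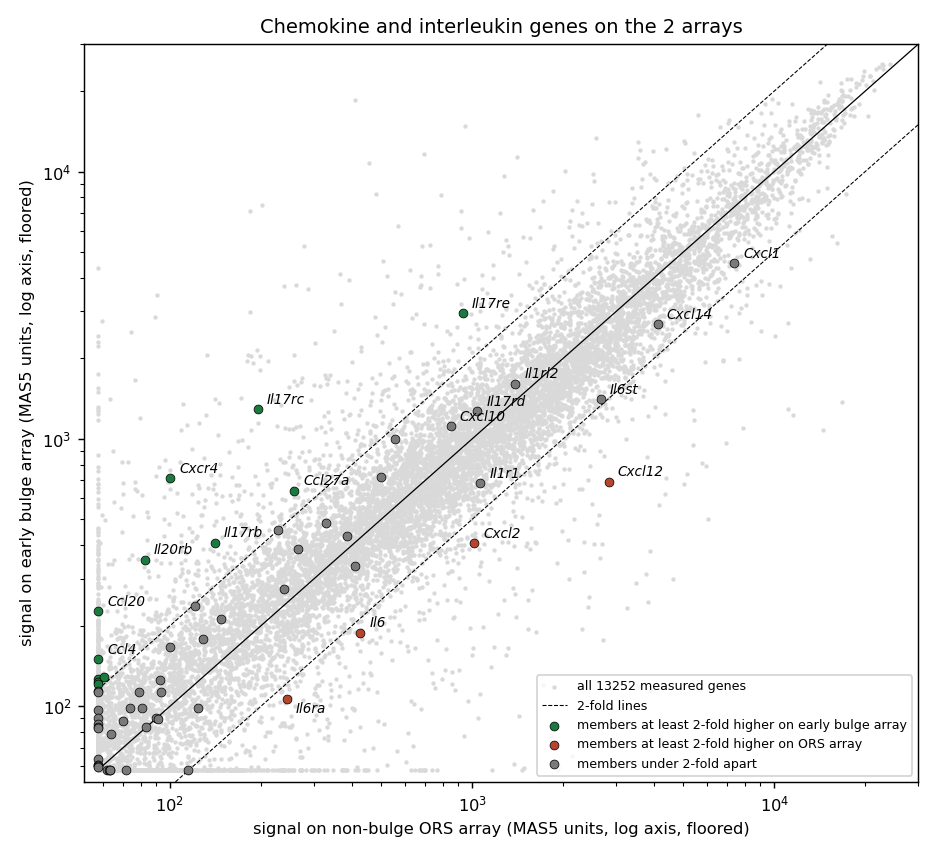
Signal of each measured gene in early bulge cells (vertical, MAS5 units, log axis) against the ORS array (horizontal, MAS5 units, log axis), with signals below 57.8 drawn at that value. Green points are the 12 members 2-fold or more higher in early bulge cells, red points the 4 that were 2-fold or more higher in ORS cells, dark grey points the other 48 measured members and light grey points all 13252 measured genes; Cxcr4 and Il17rc lie above the upper 2-fold line and Cxcl12 below the lower one.

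Scaling moved this split. After median centring of the arrays 9 members were 2-fold or more higher in early bulge cells (over all genes, 5.35%) and 6 in ORS cells (over all genes, 7.70%). After quantile normalization they were 9 and 5 (over all genes, 6.45% and 5.48%), and after loess scaling 9 and 5 (over all genes, 6.34% and 5.63%). At any size, 47 of 64 members had the higher signal in early bulge cells, as did 53.0% of all measured genes. This count was 38 of 62 after median centring (over all genes, 37.4%) and 41 of 62 after quantile normalization (over all genes, 48.1%) or loess scaling (47.9%). Median centring also moved the median log2 ratio of all measured genes to -0.17. The members just above the floor were Il27ra (59.3 in early bulge cells against 20.2 in ORS cells), Il1f10 (59.6 and 36.6, in that order) and Cxcl13 (60.1 and 39.2). Those just below it were Il4 (34.8 and 56.0), Il1f8 (41.6 and 55.5) and Ccr2 (35.3 and 52.1).

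**Figure D2:**
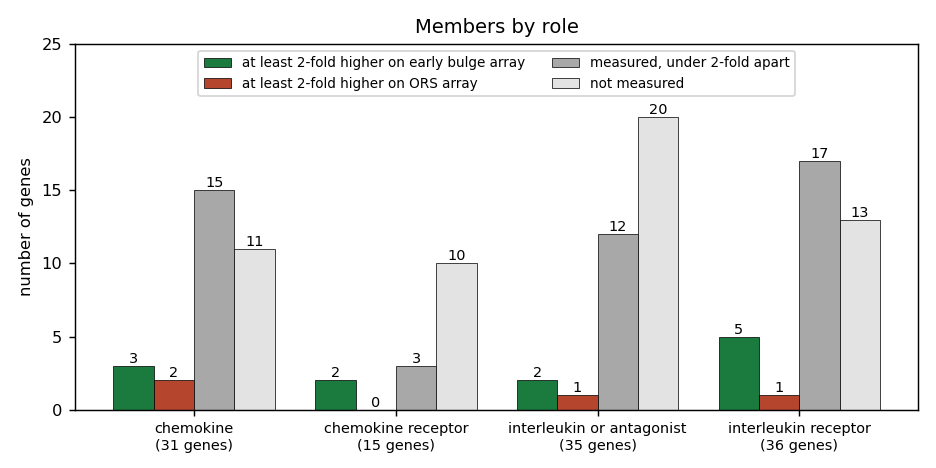
Number of genes in each role (vertical axis) that were 2-fold or more higher in early bulge cells, 2-fold or more higher in ORS cells, measured but less than 2-fold apart, or not measured. Of 15 chemokine receptors 10 were not measured, and 5 of 36 interleukin receptor genes were 2-fold or more higher in early bulge cells.

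Of 31 chemokine genes 20 were measured, 3 of them 2-fold or more higher in early bulge cells, 2 in ORS cells and 15 less than 2-fold apart, with a median log2 ratio of -0.01 and a mean of 0.08. Ccl20, which attracts cells that carry the receptor Ccr6, had a signal of 227.0 in early bulge cells against 8.20 in ORS cells, where it was below the floor, so it was at least 3.93-fold higher in early bulge. Ccl4, a chemokine usually made by leukocytes, had 149.9 in early bulge cells against 24.7 in ORS cells (at least 2.59-fold higher). Ccl27a, a chemokine of epidermal keratinocytes that draws T cells into skin, had 640.9 in early bulge cells against 257.9 in ORS cells, 2.49-fold higher in early bulge. Cxcl16, a membrane-bound chemokine and scavenger receptor, lay at the 2-fold line with 456.8 in early bulge cells against 228.6 in ORS cells, and its other probe set gave 337.1 and 65.2 (log2 ratio 2.37).

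Cxcl12, the ligand of Cxcr4 and a chemokine of stromal cells, was the 1 member 4-fold or more higher in ORS cells. Its signals were 691.4 in early bulge cells against 2832 in ORS cells, 4.10-fold higher in ORS. Its other 2 measured probe sets had the same direction but smaller log2 ratios of -0.82 and, with the early bulge array below the floor, -0.43. Cxcl2, which attracts neutrophils, had 407.7 in early bulge cells against 1017 in ORS cells, 2.50-fold higher in ORS. Its neighbour Cxcl1, a neutrophil chemokine with the same receptor, had 4543 in early bulge cells against 7352 in ORS cells (log2 ratio -0.69). Both other probe sets of Cxcl1 were at least 2-fold apart in the same direction, with log2 ratios of -1.41 and -1.01. Cxcl14, a constitutive chemokine of epithelia, had 2682 in early bulge cells against 4118 in ORS cells (-0.62), and its second probe set gave 1509 and 4252 (-1.49). Ccl11, which attracts eosinophils, had 3.32 in early bulge cells against 114.5 in ORS cells, at least 1.98-fold higher in ORS, and was past 2-fold after each of the 3 scalings.

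The interferon-induced chemokine Cxcl10 had signals of 1116 in early bulge cells against 850.7 in ORS cells (log2 ratio 0.39). Its relative Cxcl11 had 112.9 in early bulge cells against 41.4 in ORS cells, at least 1.95-fold higher, and Cxcl9 was not measured. The monocyte chemokine Ccl2 was close to the floor, with 50.0 in early bulge cells against 63.1 in ORS cells. The remaining measured chemokines (Cxcl17, Ccl28, Cxcl13, Ccl8, Ccl25, Cxcl15, Ccl1 and Ccl22) had log2 ratios between -0.13 and 0.48. Not measured were Ccl3, Ccl5, Ccl6, Ccl7, Ccl9, Ccl12, Ccl17, Ccl24, Cxcl3, Cxcl5 and Cxcl9, most of which are known from leukocytes or inflamed tissue.

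**Figure D3:**
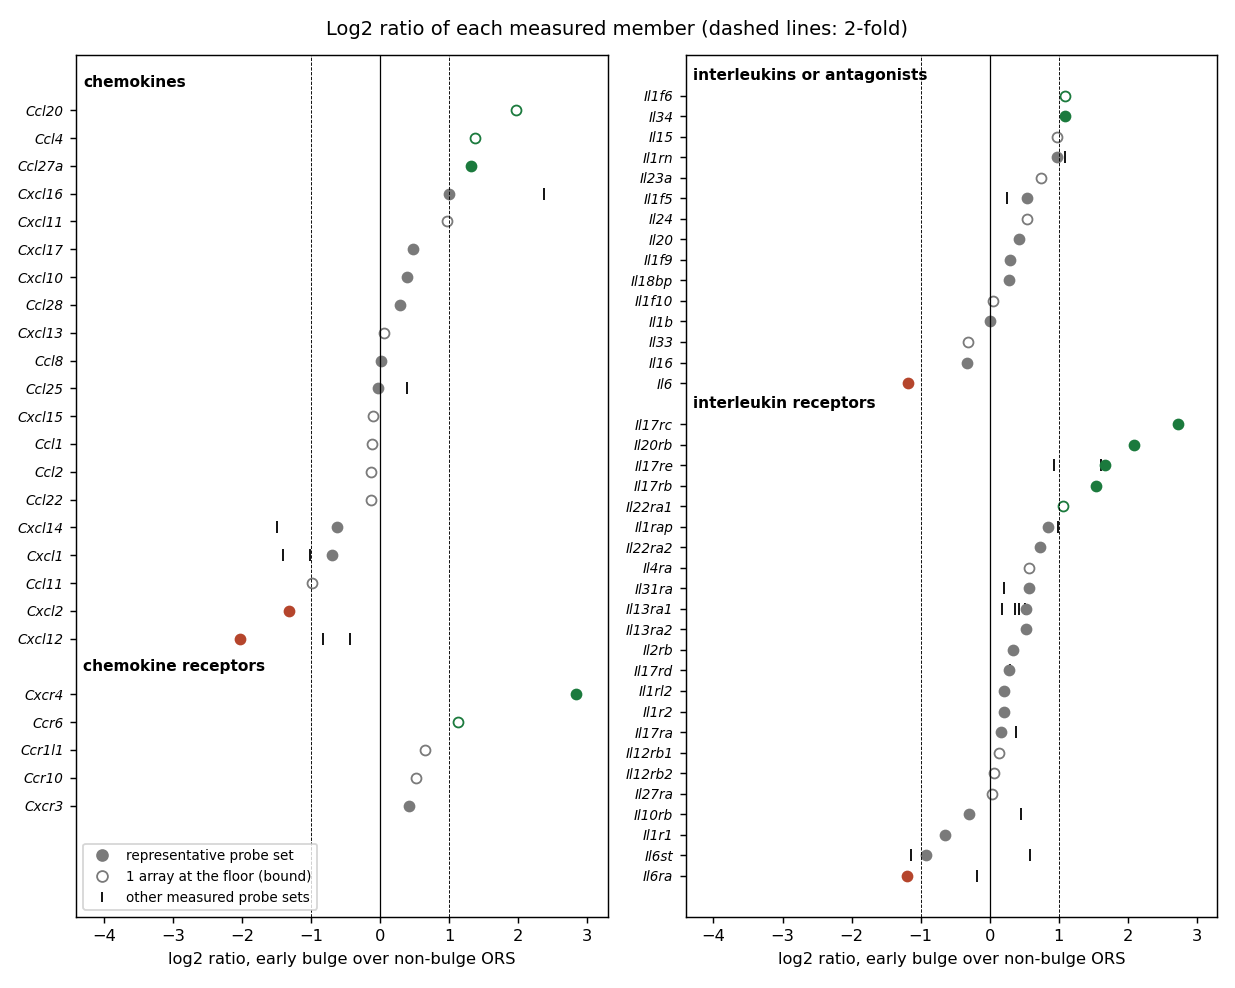
Log2 ratio, early bulge over ORS, of 63 of the 64 measured members grouped by role (Il4i1, an enzyme with a log2 ratio of 0.52, is not drawn). Filled circles are representative probe sets with both arrays above the floor, open circles those with 1 array at the floor, and ticks the other measured probe sets of the gene; dashed lines mark 2-fold, and Cxcr4 at 2.84 and Cxcl12 at -2.03 are the ends of the range.

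Of 15 chemokine receptor genes 5 were measured, 2 of them 2-fold or more higher in early bulge cells. Cxcr4 had a signal of 714.4 in early bulge cells against 100.04 in ORS cells, 7.14-fold higher in early bulge on its 1 probe set. The receptor and its ligand Cxcl12 thus lay at opposite ends of the members' ratios. Ccr6, the receptor of Ccl20, had 126.2 in early bulge cells against 50.2 in ORS cells (at least 2.18-fold higher), so that this ligand and its receptor were both above the floor in early bulge cells alone. Ccr10, the receptor of Ccl27a, had 82.8 in early bulge cells against 20.9 in ORS cells (at least 1.43-fold higher). Cxcr3, the receptor of Cxcl10, had 98.8 in early bulge cells against 73.9 in ORS cells, and Ccr1l1 had 90.6 and 55.4, in that order. The receptors that were not measured were Ccr1, Ccr2, Ccr3, Ccr4, Ccr7, Ccr8, Ccr9, Cxcr2, Cxcr5 and Cxcr6, all known from leukocytes. Cxcr2, through which Cxcl1 and Cxcl2 act, had 12.4 in early bulge cells against 10.4 in ORS cells.

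Of 9 genes of the interleukin-17 family 5 were measured, all of them receptor chains, and 3 were 2-fold or more higher in early bulge cells. Il17rc, which pairs with Il17ra to bind interleukin-17A, had a signal of 1293 in early bulge cells against 195.1 in ORS cells, 6.63-fold higher in early bulge. Il17re, which pairs with Il17ra to bind the epithelial cytokine interleukin-17C, had 2952 in early bulge cells against 929.5 in ORS cells, 3.18-fold higher. Its other probe sets gave log2 ratios of 0.93 and 1.62. Il17rb, the chain for interleukin-25, had 408.9 in early bulge cells against 140.8 in ORS cells, 2.90-fold higher. The shared chain Il17ra did not follow them by size, with 431.4 in early bulge cells against 384.1 in ORS cells (log2 ratio 0.17). Il17rd, an inhibitor of fibroblast growth factor signalling, had 1268 in early bulge cells against 1041 in ORS cells (0.28). The family's ligands Il17a, Il17b, Il17d and Il25 were not measured on either array. Il17re and Il17rc lie next to each other in the annotation of mouse assembly GRCm38.p6, with no coding gene between them. The representative probe sets of Il17rc, Il17re and Il17rb carry suffixes that mark possible sharing between transcripts, and without such probe sets Il17rc and Il17rb had no value past the floor.

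Of the interleukin-10 family, whose members act on epithelia, 6 of 9 genes were measured and 2 receptor chains were 2-fold or more higher in early bulge cells. Il20rb, the shared chain of the receptors for interleukin-19, interleukin-20 and interleukin-24, had 352.7 in early bulge cells against 82.7 in ORS cells, 4.26-fold higher. Il22ra1, a chain of the receptors for interleukin-22 and interleukin-24, had 121.2 in early bulge cells against 47.0 in ORS cells, at least 2.10-fold higher. The soluble decoy receptor Il22ra2 had 166.0 in early bulge cells against 100.3 in ORS cells (log2 ratio 0.73). The ligands Il20 (125.2 in early bulge cells against 93.0 in ORS cells) and Il24 (83.9 and 44.1, in that order) were less than 2-fold apart. The second chain Il10rb had 333.2 in early bulge cells against 410.1 in ORS cells (-0.30). Another probe set of it had 79.4 in early bulge cells against 48.2 in ORS cells, below the floor (at least 0.46).

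Within the interleukin-1 family 8 of 11 ligands and antagonists and 4 of 8 receptors were measured. The receptor chain Il18rap counts as not measured on its representative probe set, but its other probe set had 72.3 in early bulge cells against 13.7 in ORS cells. Il1f6, which encodes interleukin-36 alpha, was the 1 gene at least 2-fold apart, with 123.7 in early bulge cells against 53.6 in ORS cells (at least 2.14-fold higher). Il1rn, the antagonist of the interleukin-1 receptor, had 237.7 in early bulge cells against 120.6 in ORS cells (log2 ratio 0.98), and its other measured probe set gave 1.09. Il1f5, the antagonist of the interleukin-36 receptor, had 386.7 in early bulge cells against 265.2 in ORS cells (0.54). The interleukin-36 receptor chain Il1rl2 had 1609 in early bulge cells against 1388 in ORS cells (0.21). Il1rap, the accessory chain shared by these receptors, had 1002 in early bulge cells against 557.1 in ORS cells (0.85). The signalling receptor Il1r1 lay the other way, with 682.8 in early bulge cells against 1064 in ORS cells (-0.64), and the decoy Il1r2 had 273.9 and 238.1, in that order (0.20). Il1b was close to the floor on both arrays (83.8 and 83.6), Il33 was above it in ORS cells alone (29.2 in early bulge cells against 71.8 in ORS cells), and Il1a and Il18 were not measured.

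The interleukin-6 ligand, its receptor and the shared signalling chain Il6st, known as gp130, all had the higher signal in ORS cells. Il6 had 188.4 in early bulge cells against 426.2 in ORS cells, 2.26-fold higher in ORS. Il6ra had 106.4 in early bulge cells against 243.5 in ORS cells, 2.29-fold higher in ORS, but its other probe set gave 126.0 and 142.9, in that order (log2 ratio -0.18). Il6 fell short of 2-fold with a pseudocount, and Il6ra with a pseudocount, the higher floor or the mean over probe sets. Il6st had 1404 in early bulge cells against 2665 in ORS cells (-0.92), and another probe set gave 517.1 and 1134, in that order (-1.13). A further probe set had 86.8 in early bulge cells against 33.6 in ORS cells, below the floor (log2 ratio at least 0.59). Il6st thus had 1 probe set of opposite sign, with lower signals than the other measured ones. Il31ra, the receptor chain for the itch cytokine interleukin-31, had 486.7 in early bulge cells against 328.4 in ORS cells (0.57). The chains Il12rb1, Il12rb2 and Il27ra and the subunit gene Il23a were above the floor in early bulge cells alone, with log2 ratios of at least 0.03 to 0.74.

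Of 16 genes of the common gamma chain and interleukin-4 and interleukin-13 group 5 were measured, none of them 2-fold apart. Il13ra1, the interleukin-13 receptor chain, had 717.9 in early bulge cells against 498.2 in ORS cells (log2 ratio 0.53), and its 5 measured probe sets ranged from 0.18 to 0.53. The decoy Il13ra2 had 212.6 in early bulge cells against 148.0 in ORS cells (0.52). Il15, a survival factor of T cells and natural killer cells, had 114.0 in early bulge cells against 30.6 in ORS cells (at least 1.97-fold higher). A separate group held the interleukin-3 and interleukin-5 receptors and other interleukins. Of its 7 genes 3 were measured, and 1 was 2-fold or more higher in early bulge cells. This gene was Il34, a ligand of the receptor Csf1r that maintains Langerhans cells. Il34 had 128.9 in early bulge cells against 60.6 in ORS cells, 2.13-fold higher. The ratios of Il34, Il1f6 and Il22ra1 fell short of 2-fold after each of the 3 scalings. The T cell cytokines Il2, Il3, Il4, Il5, Il9, Il13 and Il21 were not measured.

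The spread between a gene's own probe sets is technical and says nothing of animals. Among members with several probe sets above the floor on both arrays (13 genes), the log2 ratios of one gene had a pooled SD of 0.45, against 0.36 over 5312 genes of the whole array. Of 16 members with more than 1 measured probe set, 13 had them all in 1 direction, and Ccl25, Il10rb and Il6st did not. In Il10rb and Il6st the probe set of opposite sign had its ORS signal below the floor.

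The promoters of Cxcl1, Cxcl2 and Il6 are shown because these genes had the higher signal in ORS cells and because all 3 hold a motif for NF-kB, a choice made after the values were seen. The motif searched was GGGANTTTC on both strands, in the 250 bases before each RefSeq transcript start of GRCm38.p6. It was present in 0.941% of 32851 promoters of that length and in 8 of the 107 promoters of the members (7.48%). Promoter entries were found for 90 members, 46 of them measured, and Il16, with a log2 ratio of -0.33, was the 4th measured gene with the motif, in 1 of its promoters. Each sequence is 5′ to 3′ on the plus strand, with the motif in capitals. They are Cxcl1 at chr5:90890995-90891244, Cxcl2 at chr5:90903649-90903898 and Il6 at chr5:30012864-30013113.
Cxcl1: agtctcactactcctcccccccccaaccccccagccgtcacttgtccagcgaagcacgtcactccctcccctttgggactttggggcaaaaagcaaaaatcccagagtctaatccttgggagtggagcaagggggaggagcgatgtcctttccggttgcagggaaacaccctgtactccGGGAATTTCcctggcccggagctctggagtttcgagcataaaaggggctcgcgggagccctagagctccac
Cxcl2: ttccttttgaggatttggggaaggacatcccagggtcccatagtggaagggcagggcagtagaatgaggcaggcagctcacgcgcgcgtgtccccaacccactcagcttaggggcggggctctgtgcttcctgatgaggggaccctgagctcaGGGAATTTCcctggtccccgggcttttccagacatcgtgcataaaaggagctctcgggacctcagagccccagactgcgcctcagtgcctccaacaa
Il6: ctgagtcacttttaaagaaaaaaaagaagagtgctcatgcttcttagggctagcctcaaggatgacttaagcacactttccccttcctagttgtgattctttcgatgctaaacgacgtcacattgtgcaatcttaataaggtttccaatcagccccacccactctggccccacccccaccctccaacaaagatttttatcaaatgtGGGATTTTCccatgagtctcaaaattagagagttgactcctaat
The motif began 71 bases before the transcript start in Cxcl1, 97 in Cxcl2 and 44 in Il6, and the letters were GGGAATTTC in Cxcl1 and Cxcl2 and GGGATTTTC in Il6. A match describes these letters and does not show that a factor was bound. The AP-1 motif TGANTCA was present in 19 of the 107 member promoters (17.8%) and in 6.75% of all promoters, and 8 of the 46 measured genes held it, among them Il17rb, Il22ra1, Ccl27a and Il6. The C/EBP motif TTGCNNAA was present in 15 member promoters (14%) and in 9.56% of all promoters, and 10 of the 46 genes held it, Il20rb and Il6 among them. The STAT motif TTCNNNGAA was present in 12 member promoters (11.2%) and in 7.02% of all promoters, and 8 of the 46 genes held it, Ccr6 and Cxcl14 among them. A gene counts once if any of its promoters holds the motif.

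Other genes of the same pathways included members higher on either array. Of 20 chemokine-related genes outside the name rule 16 were measured, none 2-fold or more higher in early bulge cells and 2 in ORS cells, with a median log2 ratio of 0.08 and a mean of -0.25. These were Dpp4, a peptidase that cleaves Cxcl12 (54.2 in early bulge cells against 453.1 in ORS cells, at least 7.84-fold higher in ORS), and Ackr3, a scavenging receptor for Cxcl12 (904.7 in early bulge cells against 2655 in ORS cells, 2.93-fold higher in ORS). The 4 measured probe sets of Dpp4 had log2 ratios from -2.97 to -0.67. Dpp4 and Ackr3 lay on the same side as Cxcl12, opposite to Cxcr4. The connective tissue markers given below lay on the ORS side too, and their part in the ratios of Dpp4 and Ackr3 was not tested. Of 24 cytokine and receptor genes related to interleukins 20 were measured, 2 of them at least 2-fold higher in early bulge cells and 2 in ORS cells (median 0.01). Lifr, a receptor chain that pairs with Il6st, had 6235 in early bulge cells against 569.7 in ORS cells, 10.9-fold higher, although another probe set gave a log2 ratio of 0.34. The ligand Clcf1 and the receptor Cntfr, which also act through Il6st, were higher in ORS cells (2.18-fold and 2.09-fold), with 1 probe set of Clcf1 of opposite sign.

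All 23 genes of interleukin-1 and interleukin-17 signalling to NF-kB were measured, 3 of them 2-fold or more higher in early bulge cells and none in ORS cells, with a median of 0.24. Irak3, an inhibitor of interleukin-1 receptor signalling, had 371.8 in early bulge cells against 56.4 in ORS cells, at least 6.43-fold higher. The ubiquitin ligase Peli2 was 2.13-fold and the NF-kB subunit Relb 2.09-fold higher. The adaptor Myd88 had a log2 ratio of 0.88. Of 22 JAK-STAT genes 20 were measured, 5 of them 2-fold or more higher in early bulge cells and none in ORS cells (median 0.51). Stat3, the factor downstream of Il6st, had 2652 in early bulge cells against 760.9 in ORS cells, 3.49-fold higher, and all 4 of its probe sets lay between 1.31 and 1.90. Its feedback inhibitor Socs3 had 11284 in early bulge cells against 3535 in ORS cells, 3.19-fold higher. Stat3 and Socs3 thus lay on the opposite side from Il6, Il6ra and Il6st. Stat5a was 3.99-fold and Jak3 at least 3.05-fold higher.

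Of 17 keratinocyte genes known to respond to interleukin-1, interleukin-17 or interferon, 10 were measured and 7 were not. Among the 10, 2 were 2-fold or more higher in early bulge cells and 1 in ORS cells (median 0.39, but -0.09 with the floor at the 60th percentile). The interferon regulatory factor Irf1 had 3759 in early bulge cells against 1542 in ORS cells, 2.44-fold higher, and S100a8 was at least 2.60-fold higher with 150.1 and 21.1, in that order. The acute phase gene Saa3 was 4.29-fold higher in ORS (77.7 in early bulge cells against 332.8 in ORS cells). Of 12 genes of interleukin-1 processing 9 were measured, 3 of them 2-fold or more higher in early bulge cells (median 0.54). Casp1, the protease that activates interleukin-1 beta, had 324.5 in early bulge cells against 123.5 in ORS cells, 2.63-fold higher. Capn1 was 2.25-fold and Elane, a neutrophil protease, at least 3.06-fold higher.

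**Figure D4:**
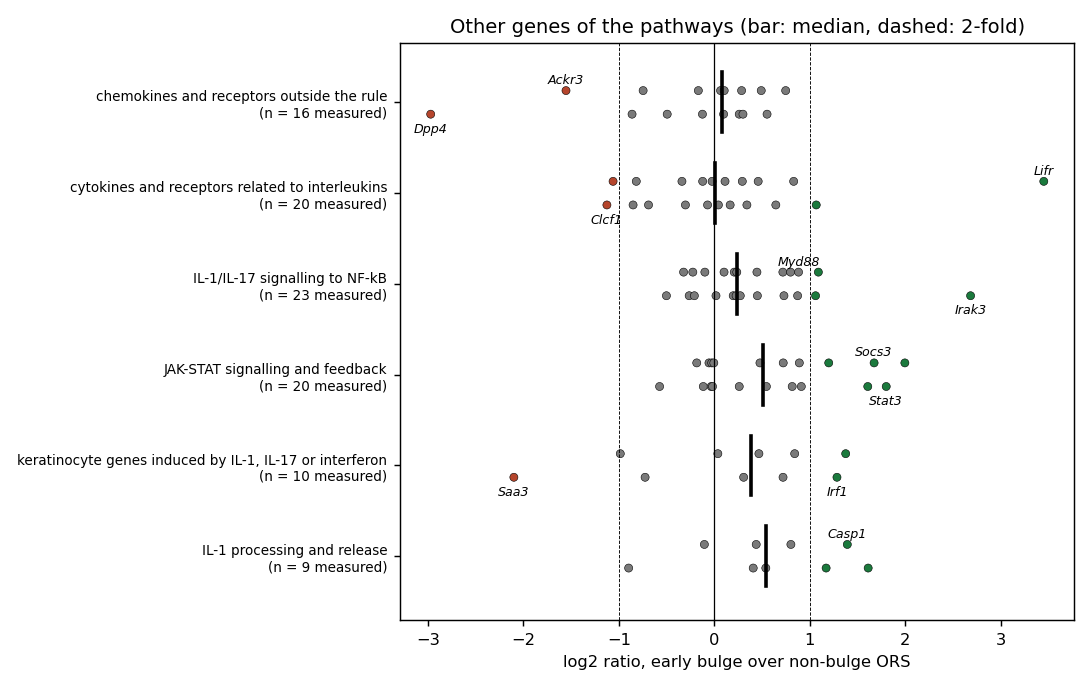
Log2 ratio, early bulge over ORS (horizontal), of the measured genes of 6 pathway lists, with a bar at each median and dashed lines at 2-fold. The JAK-STAT list has 5 of 20 genes to the right of the 2-fold line and none to the left, and Lifr at 3.45 is the point farthest right.

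Markers of connective tissue cells were higher in ORS cells, the side of Cxcl12, Il6, Cxcl2 and Ccl11, which such cells are also known to make. All 12 dermal fibroblast markers with a probe set were measured and 10 were at least 2-fold higher in ORS (median -3.58), with a summed signal of 19868 in early bulge cells against 70685 in ORS cells. The collagen gene Col1a2 had 1079 in early bulge cells against 14484 in ORS cells. Lum had 118.3 in early bulge cells against 3539 in ORS cells, Postn had 12201 and 8010, in that order, and Pdgfra was below the floor in early bulge cells alone (11.3 in early bulge cells against 738.3 in ORS cells). Among 8 markers of pericytes and smooth muscle, 6 were past 2-fold towards ORS (median -2.09). One of them, Acta2, had 1299 in early bulge cells against 11143 in ORS cells. Of 10 endothelial markers 5 were measured, 4 with the higher signal in ORS cells and 1 in early bulge cells (median -0.41). Of these only Tek was past 2-fold, with 70.0 in early bulge cells against 285.9 in ORS cells. The endothelial markers Pecam1 and Cdh5 were not measured. The part of these cell types in the ratios of the members and of the pathway lists was not tested. In sorted bulk samples fewer cells of a type and less RNA per cell cannot be told apart. Leukocyte markers were mostly below the floor. The leukocyte marker Ptprc was below it on both arrays (47.0 in early bulge cells against 28.5 in ORS cells). So were the T cell markers Cd3e (14.2 and 18.2, in that order) and Cd3d (2.52 and 2.65). Another leukocyte marker, Laptm5, was above the floor on both arrays (404.1 in early bulge cells against 374.5 in ORS cells). So was the macrophage marker Lyz2 (61.6 and 108.8, in that order), while the macrophage marker Cd68 was above it in early bulge cells alone. Of 8 T cell markers 2 were measured, both past 2-fold in opposite directions. Cd8a had 140.3 in early bulge cells against 66.0 in ORS cells, and Thy1, which is also on the fibroblast list, had 242.6 in early bulge cells against 766.4 in ORS cells. Of 12 leukocyte markers 4 were measured, none 2-fold apart, with a summed signal of 801.4 in early bulge cells against 895.3 in ORS cells. Of 16 macrophage and Langerhans cell markers 8 were measured, none 2-fold apart (median 0.08). Of 10 mast cell and neutrophil markers 3 were measured, Elane, S100a8 and Mpo, each above the floor in early bulge cells alone. Their shared direction therefore only restates which array passed the floor. The mast cell markers Cma1 (57.4 in early bulge cells against 56.2 in ORS cells) and Cpa3 (54.9 and 14.6, in that order) were not measured.

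**Figure D5:**
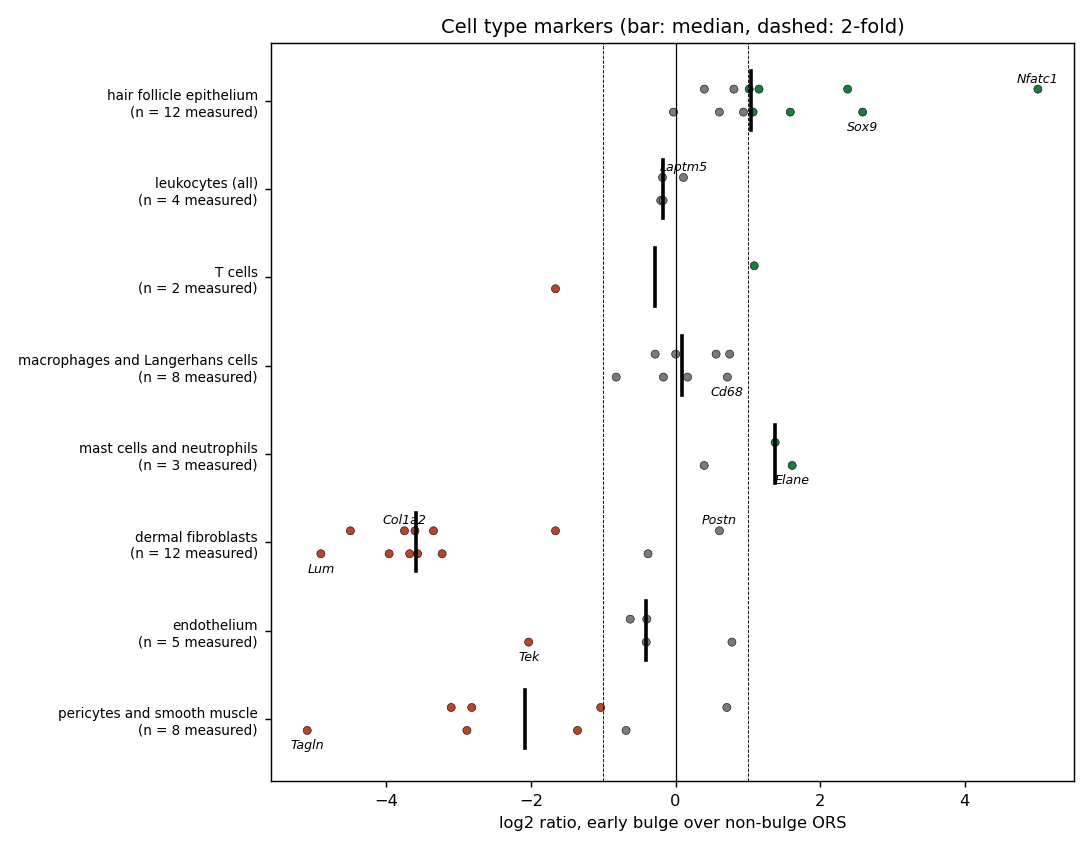
Log2 ratio, early bulge over ORS (horizontal), of the measured genes of 8 cell type marker lists, with a bar at each median and dashed lines at 2-fold. Of the dermal fibroblast markers 10 of 12 lie left of the 2-fold line, and the 4 measured leukocyte markers lie between the lines.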

How the data were processed

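RNA of 2 sorted populations was hybridised to 1 Affymetrix expression array each (45101 probe sets, 64 of them controls). Per the submitters' processing notes, the authors used MAS5 and Affymetrix Expression Console (no version given). The deposited unit is linear signal intensity. Detection calls and probe-level data were not used here. The sources used here name no genome build. TrpnX negative controls reached a signal of 28.1.

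Genes were named from the platform annotation (34958 probe sets with 1 symbol, 932 with several, which were left out), and all 119 members had their Entrez ID in a RefSeq table of GRCm38.p6, with 0 symbols changed. The probe set with the highest signal, averaged on the log2 scale, stood for its gene. The floor, 57.8, is the 40th percentile over non-control probe sets. Genes were counted at 2-fold and 4-fold, and lists were described by counts and medians. The members and lists were chosen with earlier results of these data known. Every member could be named, up to 4 genes of each pathway list and 3 of each marker list by absolute log2 ratio, the first 2 markers of each list, and Krt14 and Sox9. Postn and Pdgfra were named after their values were seen. The 9 alternatives were 3 scalings (loess span 0.4), floors at the 20th and the 60th percentile, a pseudocount equal to the floor, no floor, the mean over probe sets, and leaving out probe sets whose ID ends in _s_at, _x_at or _a_at. The procedure was tested on simulated arrays. Python 3.11.15, numpy 2.4.6, pandas 2.3.3 and matplotlib 3.10.9 were used. Precision is limited by having 1 array per population.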

Additional observations from a re-analysis of the deposited data

Results flagged for a closer look

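Probe sets that hold a chemokine or interleukin symbol together with others were outside the comparisons, and 5 of 7 had a signal above the negative control maximum of 28.1 on at least 1 array. Of these 5, 4 were also above the floor of 57.8. A probe set shared by Ccl27a, Ccl27b and 3 other symbols had 3298 in early bulge cells against 820.7 in ORS cells (log2 ratio 2.01), and a second probe set of the same 5 symbols had 494.3 and 208.1, in that order (1.25). Both had the direction of the probe set annotated to Ccl27a alone. A probe set shared by Ntan1 and Il2 had 2440 in early bulge cells against 2014 in ORS cells, while the probe set of Il2 alone was below the floor. A probe set shared by Ccl19 and 9 other symbols had 153.3 in early bulge cells against 174.3 in ORS cells. The fifth, shared by Il4i1b and Il4i1, had 14.02 in early bulge cells against 34.1 in ORS cells, both below the floor. These signals cannot be assigned to 1 gene.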

How the results depend on the processing

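Of 134 values of the 16 members at least 2-fold apart under the 9 alternatives, none changed sign and 118 moved by less than 0.36, the log2 spread between probe sets of one gene. Members not measured under an alternative gave no value there. A changed floor or a pseudocount cannot reverse the direction of a probe set, and the 16 were chosen for being 2-fold apart. The lack of sign changes is therefore no test of the directions. The counts followed the floor. With the 20th percentile (18.7) 102 members were measured, 22 2-fold or more higher in early bulge cells (over all genes, 11.4%) and 9 in ORS cells (over all genes, 6.01%). With the 60th (171.8) they were 29, 6 and 3 (over all genes, 6.11% and 4.23%). Without a floor 119 were measured, 33 and 16 (over all genes, 15.0% and 8.80%), and 23.8% of all genes were 2-fold apart. With a pseudocount 119 members had a value, 8 and 3 (over all genes, 4.16% and 2.87%), and 7.04% of all genes were 2-fold apart. Without suffixed probe sets 53 members were measured, 6 of them 2-fold or more higher in early bulge cells (over all genes, 7.48%) and 6 in ORS cells (over all genes, 4.82%). The early bulge count fell because Ccl27a, Ccr6, Il17rb, Il17rc and Il34 then had no measured value and Il17re had a log2 ratio of 0.93. The ORS count rose because Cxcl1 and Cxcl14 were then represented by other probe sets past 2-fold. Cxcr4, Il20rb, Cxcl12 and Cxcl2 stayed at least 2-fold apart under all 9 alternatives. The log2 ratio of Ccl20, whose ORS signal was below the floor, ran from 0.40 to 4.79. Il6ra fell short of 2-fold with the 60th percentile floor (-0.50), the mean over probe sets (-0.69) and a pseudocount (-0.88), and Il6 with a pseudocount (-0.98). The median of the chemokine-related list was below 0 after median centring (-0.15), quantile normalization (-0.06), loess scaling (-0.07) and with the mean over probe sets (-0.12), and that of the related cytokines after the 3 scalings (-0.21, -0.07 and -0.06). The keratinocyte response list had a median of 0.77 with the 20th percentile floor, -0.09 with the 60th and 0.84 without a floor. No paired analysis was possible because each population has 1 array.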
